A study of Mus musculus with 66 samples.

Results

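The mitochondrial ribosomal protein genes were taken as the gene symbols made of Mrpl or Mrps, a number and at most a final a or b. This gave 69 of the 11513 genes in the deposited tables, 43 named Mrpl for the large subunit and 26 named Mrps for the small subunit. All 69 passed the filter on low values in each of the 4 tables used (exons and introns, in labelled and in total RNA). The study followed 3T9-MycER cells, immortalized mouse embryonic fibroblasts whose own c-myc alleles are floxed and which carry a retroviral MycER construct, a fusion of Myc with a hormone-binding domain that responds to 4-hydroxytamoxifen (OHT). RNA was sampled at 0 min without OHT and at 10, 20 and 30 min and 1, 1.5, 2, 4, 8, 12 and 16 h in 400 nM OHT. Each time has 3 libraries of total RNA and 3 of newly made RNA, isolated after cells took up 4-thiouridine (4sU, 300 µM) over 10 min, giving 66 libraries. The second kind is called labelled below. The 0 min libraries are the control of every time, so all changes given below within a table share them, and no time course without OHT was analysed here. The genotype, the MycER construct and the culture were common to all groups. The labels do not say whether replicates were separate cultures, so the p-values measure only the spread between libraries, which may be technical.

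Mitochondrial ribosomes translate the few membrane proteins of the respiratory chain and the ATP synthase that mitochondrial DNA encodes. Their RNA comes from that DNA, whereas every one of their proteins is encoded in the nucleus, made in the cytosol and imported. Some of these proteins descend from bacterial ribosomal proteins and others have no bacterial counterpart. The division by symbol is not fully that of the particle. For example, the proteins named Mrps30 and Mrps18a have been placed in the large subunit by structures. Myc is a transcription factor known for acting on genes of ribosome production and mitochondrial biogenesis.

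Per library, the deposited values summed to 11619390 to 14118146 in labelled exons, 46498084 to 52716124 in total exons, 31279341 to 39258946 in labelled introns and 10649913 to 13008655 in total introns. They are rescaled whole numbers, so the depth is unknown. Of 8 fibroblast markers, 6 were in the tables, at 11.82 to 2220 RPKM (reads scaled by gene length and library size) in total exons at 0 min. The 5 markers of endothelium, blood and neurons that were in the tables stood at 0.04383 to 7.313 RPKM, the highest being neuronal. Below, a level is a deposited value after scaling by the trimmed mean of M values (TMM), and a change is a difference of log2(value + 1) against 0 min with its standard error (SE). A gene is said to have risen or fallen where limma, fitted to all 33 libraries of a table, gave a Benjamini-Hochberg adjusted p under 0.05 over all genes kept. RNA was measured in bulk, so fewer cells making a transcript and less of it per cell cannot be told apart.

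In labelled exons at 16 h, 49 of the 69 genes had risen and 0 had fallen, against 22.7% of all genes that rose and 21.6% that fell. Without the adjustment, 52 had p under 0.05 with a rise and 0 with a fall. The median change was 0.35, a 1.27-fold rise, against 0.01 over all genes. Of the Mrpl genes 30 rose and of the Mrps genes 19, and the single changes ran from -0.30 for Mrpl14 to 1.69 for Mrpl22. In total exons at 16 h, 42 rose and 4 fell, against 26.3% and 29.6% of all genes, with a median of 0.25 against -0.01. The 78 genes of cytosolic ribosomal proteins, which build the other ribosome of the cell, had a median of 0.06 in labelled exons, where 13 rose and 1 fell of 77 tested, and of -0.12 in total exons, where 3 rose and 27 fell. The labelled count of 13 was 5 under RPKM, 20 under scaling by library sums and 5 without replicate 1 of 0 min.

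**Figure D1:**
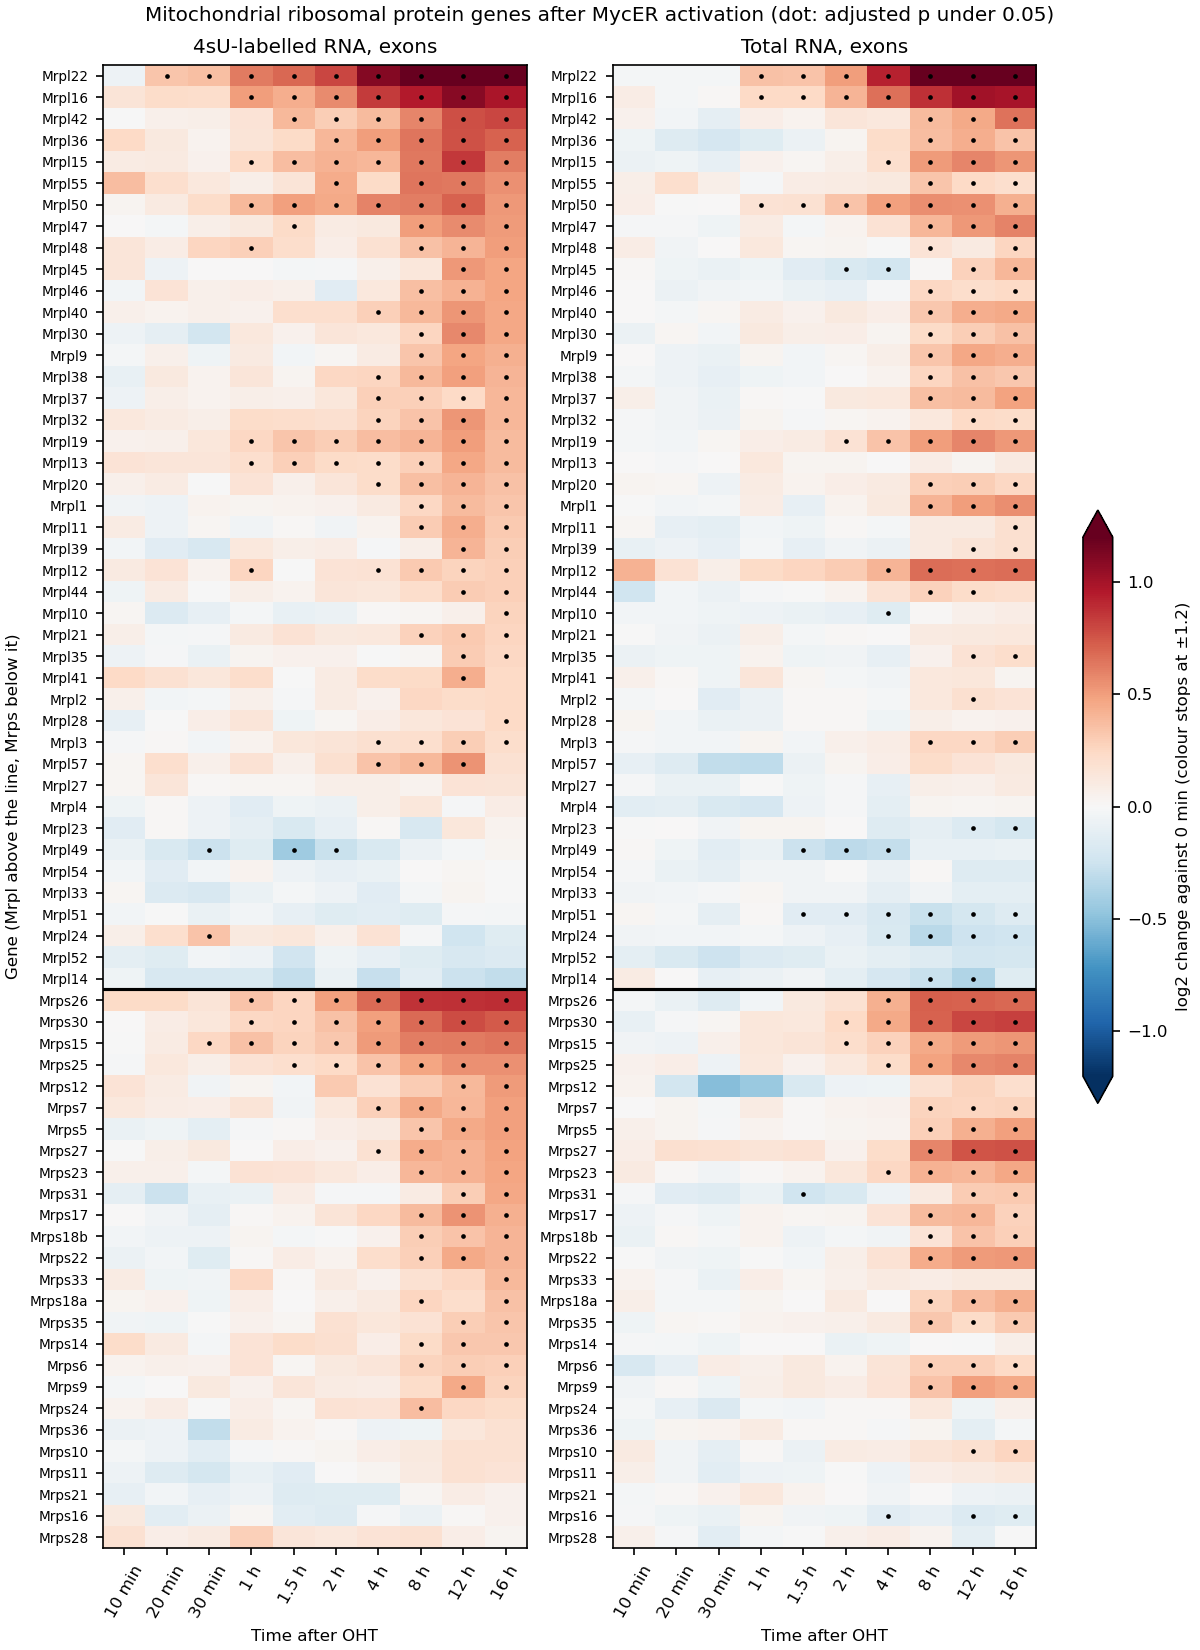
Change of each of the 69 genes against 0 min (colour, log2 scale, stopping at 1.2 in either direction) in labelled exons (left) and total exons (right) at the 10 later times, with Mrpl genes above the line and Mrps genes below it, each ordered by the labelled change at 16 h. Dots mark an adjusted p under 0.05 (limma), 49 rises at 16 h on the left and 42 rises with 4 falls on the right.

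The genes were not all called at the same time, and whether their rises began at different times was not tested. At 10 min 0 of the 69 genes passed the limma test in labelled exons, as for 0% of all genes, with 5 rises and 0 falls at an unadjusted p under 0.05. At 20 min 1 gene rose, Mrpl22 (3.35% of all genes), and at 30 min 3 rose (8.24%), Mrpl22, Mrpl24 and Mrps15, while Mrpl49 fell (3.6%). The calls of Mrpl24 and Mrps15 at 30 min were lost under 8 and 9 alternatives. The split at 30 min was 1 rise and 1 fall with library sums and 1 and 2 without further scaling. The count of rises was 11 at 1 h (13.7%), 12 at 1.5 h (14.7%), 13 at 2 h (15.6%), 22 at 4 h (19.6%), 40 at 8 h (21.8%) and 47 at 12 h (25%). The shares of members risen at 1 h (15.9%), 1.5 h (17.4%) and 2 h (18.8%) were near those of all genes. The 1 fall called at 1.5 h (11.4%) and the 1 at 2 h (11.3%) were again Mrpl49, and 0 fell at 1 h (9.65%), 4 h (18.8%), 8 h (22.5%) and 12 h (24.5%) in this table by limma, with 0, 1, 1 and 1 falls at an unadjusted p under 0.05. At 1.5 h the split was 7 and 2 without further scaling and 7 and 4 with RPKM. The count at 4 h included Mrpl12 and Mrps27 with an adjusted p of 0.0497 each, and it was 12 without further scaling. At 1 h the count was 6 under library sums and 7 without replicate 2 of 1 h or replicate 3 of 0 min.

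In total exons limma called 0 members at 10 min (0% of all genes), 20 min (0.0435% higher, 0% lower) and 30 min (0.331% and 0.0348%). An unadjusted p under 0.05 gave 1 rise and 1 fall, 1 and 0, and 0 and 7 at these times. The shares just given are of adjusted calls and are no background for the unadjusted counts. Mrpl16, Mrpl22 and Mrpl50 rose and 0 members fell at 1 h (5.08% and 3.66% of all genes), with 2 falls at an unadjusted p under 0.05 in limma. Then 3 genes had risen at 1.5 h (9.19%) and 6 at 2 h (11.5%), with 3 lower at 1.5 h (7.84%) and 3 at 2 h (10.5%). At 1.5 h the split was 1 and 4 without further scaling. At 4 h 11 genes had risen and 6 had fallen, against 19.5% and 19.9% of all genes, so that the share that rose, 15.9%, was near the background. Without further scaling the counts at 4 h were 7 and 8. At 8 h 36 had risen and 3 fallen (24.6% and 26.6%), and at 12 h 42 had risen and 5 fallen (27% and 30%). In total exons the first call of a rise came by 4 h for 11 members (15.9%, against 21% of all genes), at 8 h for 25 (36.2%, against 6.88%) and at 12 or 16 h for 8 (11.6%, against 6.58%). In labelled exons it came by 4 h for 26 (37.7%, against 23.8%), at 8 h for 15 (21.7%, against 3.94%) and at 12 or 16 h for 12 (17.4%, against 6.31%). For 25 members in total exons (36.2%, against 65.5% of all genes) and 16 in labelled exons (23.2%, against 65.9%) no time gave a rise. The 2 tables were not tested against each other on these times.

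**Figure D2:**
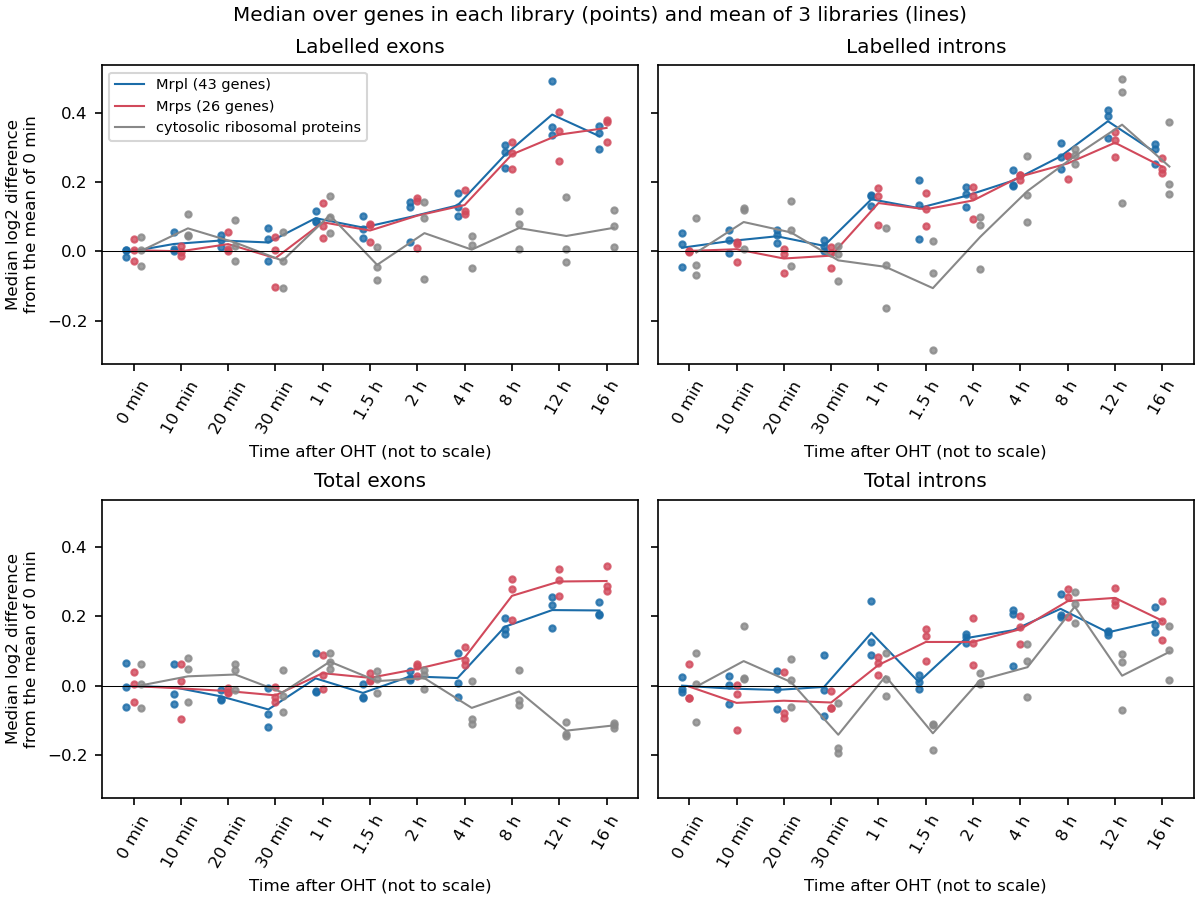
Median over the Mrpl genes, the Mrps genes and the cytosolic ribosomal protein genes of the log2 difference from the mean of 0 min in each library (points), with the mean of the 3 libraries of a time (lines), in the 4 tables. In labelled exons the Mrpl and Mrps medians reach 0.29 to 0.38 in the 6 values at 16 h, and in total exons the cytosolic medians are below 0 in every library at 16 h.

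Promoter sequence from RefSeq (GRCm38.p6), read here as the 250 bases before the start site, was found for 61 of the 69 genes, which had 67 such promoters. The 4 printed here were chosen after their values were seen, to set genes that rose beside one that did not pass: Mrpl36 with CACGTG, Mrpl22 with CCGGAAG, Mrps30 with none of the motifs searched, and Mrpl52 with 3 matches, whose labelled exons changed by -0.16 ± 0.14 at 16 h. Capitals mark CACGTG, the E-box that Myc and other factors bind, its variant CACGCG or CGCGTG, and CCGGAAG or CTTCCGG, the core bound by ETS factors.
Mrpl22, chr11:58171414-58171663, plus strand: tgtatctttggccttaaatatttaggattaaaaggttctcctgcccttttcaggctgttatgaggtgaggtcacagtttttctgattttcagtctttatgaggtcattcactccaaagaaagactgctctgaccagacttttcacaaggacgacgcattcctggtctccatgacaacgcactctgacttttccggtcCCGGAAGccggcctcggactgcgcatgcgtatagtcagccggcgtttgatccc
Mrpl36, chr13:73330759-73331008, plus strand: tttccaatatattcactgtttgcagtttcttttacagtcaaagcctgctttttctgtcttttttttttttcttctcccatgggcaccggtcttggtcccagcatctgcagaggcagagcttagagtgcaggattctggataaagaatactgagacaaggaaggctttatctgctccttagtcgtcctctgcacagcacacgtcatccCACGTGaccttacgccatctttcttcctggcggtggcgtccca
Mrps30, chr13:118387253-118387502, minus strand: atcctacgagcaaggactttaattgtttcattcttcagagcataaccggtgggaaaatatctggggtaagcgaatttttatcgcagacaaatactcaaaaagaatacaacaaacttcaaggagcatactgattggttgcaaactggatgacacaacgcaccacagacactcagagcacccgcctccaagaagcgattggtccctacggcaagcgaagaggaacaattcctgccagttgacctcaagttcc
Mrpl52, chr14:54426659-54426908, plus strand: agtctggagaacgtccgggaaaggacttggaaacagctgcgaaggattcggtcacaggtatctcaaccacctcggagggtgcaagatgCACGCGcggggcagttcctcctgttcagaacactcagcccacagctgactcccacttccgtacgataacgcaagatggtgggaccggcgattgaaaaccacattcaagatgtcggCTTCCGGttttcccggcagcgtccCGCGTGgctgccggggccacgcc

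CACGTG, which reads the same on both strands, was in 6 promoters of 4 genes, Mrpl2, Mrpl20, Mrpl36 and Mrpl37, which is 8.96% of the 67 promoters, against 8.5% of the 11835 promoters of genes in the deposited tables and 6.02% of all 32851 promoters in the RefSeq table. Of these 6, 3 belong to start sites of Mrpl2 within 16 bases that hold the same match, and by gene CACGTG was found for 6.56% of the 61 members, against 10.3% of genes in the deposited tables and 6.86% of all genes in the RefSeq table. The variant CACGCG, on either strand, was in 8 promoters of 8 genes (11.9%, against 14.2% and 7.62%). CCGGAAG, on either strand, was in 11 (16.4%, against 13.5% and 6.91%). Matches to the variant on the 2 strands may overlap, since both share the letters CGCG. The palindrome bound by NRF1, a factor of nuclear genes for mitochondria, was in 3 promoters (4.48%, against 1.68% and 0.782%), 3 of 42 for Mrpl and 0 of 25 for Mrps. By symbol, CACGTG was in 6 of 42 Mrpl and 0 of 25 Mrps promoters. Counted by gene it was found for 4 of 37 Mrpl (10.8%) and 0 of 24 Mrps, the Mrpl share being near the 10.3% of genes in the deposited tables. The 16 h change in labelled exons had a median of 0.38 over the 4 genes with CACGTG, 3 of which rose, and of 0.34 over the 57 without it, 41 of which rose. With CCGGAAG the median was 0.35 over 11 genes, and without it 0.35 over 50. A match is a run of letters in this window and not a measured site.

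Mrpl22, whose bacterial counterpart lines the tunnel through which the growing chain leaves the ribosome, had the largest rise among the 69 genes. It lies on the plus strand at chr11:57985163-57993067 (mm9, GENCODE M1) and overlaps no other annotated gene. In labelled exons its levels were 430.2, 407.6 and 417.8 at 0 min, 627.2, 620.3 and 690.5 at 1 h, 923.8, 827.3 and 949.7 at 4 h and 1367, 1290 and 1393 at 16 h. No library of 1, 4 or 16 h overlapped those of 0 min. The changes were 0.62 ± 0.08 (SE) at 1 h, 1.10 ± 0.08 at 4 h and 1.69 ± 0.08 at 16 h (n = 3, adjusted p = 1.76e-18 at 16 h, limma). In total exons the levels were 2335, 2086 and 2339 at 0 min and 6933, 6566 and 7083 at 16 h, a change of 1.61 ± 0.08 (adjusted p = 2.61e-16, limma). The rise at 20 min in labelled exons, 0.33 ± 0.08 with an adjusted p of 0.00849 in limma, gave 0.0657 without replicate 1 of 20 min and 0.0899 without further scaling. At the same time total exons stood at 2257, 2227 and 2177, within the range of 0 min.

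Mrpl16, the counterpart of a bacterial protein near the peptidyl transferase centre, is at chr19:11844881-11849434 (mm9, plus strand) and overlaps no other gene. In labelled exons it was at 438.9, 407.6 and 416.0 at 0 min, 598.5, 597.3 and 593.0 at 1 h and 843.7, 754.8 and 891.6 at 16 h. Total exons held 1675, 1599 and 1658 at 0 min, 1909, 2067 and 1864 at 1 h and 3448, 3069 and 3297 at 16 h. Every library of 1 h and 16 h was above every library of 0 min in both kinds of RNA. The change at 1 h was 0.50 ± 0.09 in labelled and 0.24 ± 0.06 in total exons (adjusted p = 4.3e-05 and 0.00866, limma).

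Mrpl42 and Mrpl50 code for large-subunit proteins without a bacterial counterpart. Mrpl42 stood at 860.4, 883.7 and 783.0 in labelled exons at 0 min and at 1453, 1446 and 1504 at 16 h, with groups that did not overlap and a change of 0.80 ± 0.07 (adjusted p = 8.24e-12, limma). In total exons it changed by 0.13 ± 0.07 at 4 h, which did not pass, and rose by 0.65 ± 0.07 at 16 h. The labelled change less the total change was 0.26 ± 0.09 at 4 h and was not called (adjusted p = 0.513, limma). Mrpl50 in labelled exons was at 722.2, 781.0 and 665.6 at 0 min, 1067, 1037 and 1166 at 4 h, 1107, 1046 and 1161 at 8 h, 1047, 1252 and 1242 at 12 h and 966.5, 1038 and 1105 at 16 h. The ranges of these 4 later times overlapped one another and all lay above 0 min, with changes of 0.59 ± 0.07, 0.61 ± 0.07, 0.70 ± 0.07 and 0.52 ± 0.07. Mrpl36, a small zinc-binding protein, rose in labelled exons from 217.5, 201.3 and 209.8 to 334.7, 350.8 and 344.9 at 16 h, a change of 0.71 ± 0.12, and in total exons by 0.35 ± 0.10. The difference between those changes was not called.

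Mrpl12, a protein of the stalk that recruits translation factors and one of the most abundant of these transcripts, changed by 0.29 ± 0.07 in labelled and 0.67 ± 0.15 in total exons at 16 h (adjusted p = 9.63e-04 and 3.21e-04, limma). Total exons held 4349, 5387 and 5009 at 0 min and 7683, 7557 and 8166 at 16 h, without overlap. Labelled exons held 1367, 1195 and 1427 at 0 min and 1630, 1557 and 1682 at 16 h, also without overlap. The rise of Mrpl12 in total exons at 4 h, 0.41 ± 0.15, was not called without replicate 1 of 0 min (adjusted p = 0.138, limma). Mrpl11, from the base of the same stalk, rose by 0.31 ± 0.10 in labelled and 0.19 ± 0.08 in total exons at 16 h, calls that gave an adjusted p of 0.111 without replicate 1 of labelled 16 h and 0.183 without replicate 2 of total 0 min in limma.

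Among the Mrps genes, Mrps26, a small-subunit protein without a bacterial counterpart, had the largest labelled rise. Its gene at chr2:130389478-130394431 (mm9, plus strand) overlaps the noncoding gene 4930473A02Rik on the other strand, and the strand used in counting is not given in the sources used here, so reads of the pair may not be separated. Labelled exons were at 569.4, 464.0 and 551.9 at 0 min, 766.2, 923.3 and 852.9 at 4 h and 971.4, 952.3 and 998.7 at 16 h, and neither later group overlapped 0 min. The changes were 0.68 ± 0.10 and 0.89 ± 0.10, and total exons changed by 0.69 ± 0.11 at 16 h (adjusted p = 2.38e-06, limma).

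Mrps30 at chr13:119168917-119176059 (mm9, minus strand) overlaps no other gene. It was at 753.1, 830.3 and 715.5 at 0 min and 1321, 1289 and 1210 at 16 h in labelled exons, and at 2973, 3307 and 3256 and 5788, 5362 and 5688 in total exons. Neither pair of groups overlapped, and the changes were 0.73 ± 0.07 and 0.82 ± 0.06 (adjusted p = 3.91e-10 and 4.67e-12, limma). Mrps18a, the other Mrps gene placed in the large subunit, rose by 0.35 ± 0.11 and 0.43 ± 0.06, the labelled call giving an adjusted p of 0.0988 without replicate 2 of 0 min in limma. Mrps15, which binds the ribosomal RNA of the small subunit early in its assembly, rose by 0.35 ± 0.08 at 1 h and 0.64 ± 0.08 at 16 h in labelled exons and by 0.53 ± 0.07 at 16 h in total exons. Mrps27, an RNA-binding protein of the pentatricopeptide repeat family, rose by 0.48 ± 0.07 in labelled and 0.76 ± 0.15 in total exons at 16 h. Its total levels, 1146, 1378 and 1377 at 0 min and 2404, 2135 and 2077 at 16 h, did not overlap.

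Mrps5 and Mrps7, whose counterparts are found in bacterial small subunits, and Mrps18b rose by 0.49 ± 0.08, 0.49 ± 0.08 and 0.41 ± 0.07 in labelled exons at 16 h, and by 0.49 ± 0.05, 0.27 ± 0.05 and 0.29 ± 0.07 in total exons. Mrps12, a protein of the decoding centre, was low in labelled exons, at 83.14, 77.5 and 95.22 at 0 min and 131.7, 127.3 and 108.0 at 16 h, and rose by 0.52 ± 0.16. In total exons it varied widely between libraries, from 678.6 to 920.0 at 0 min and from 312.8 to 760.3 at 30 min, and its 16 h change of 0.20 ± 0.21 was not called. The plot of 6 genes by library shows this spread beside the narrow spread of Mrpl51.

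**Figure D3:**
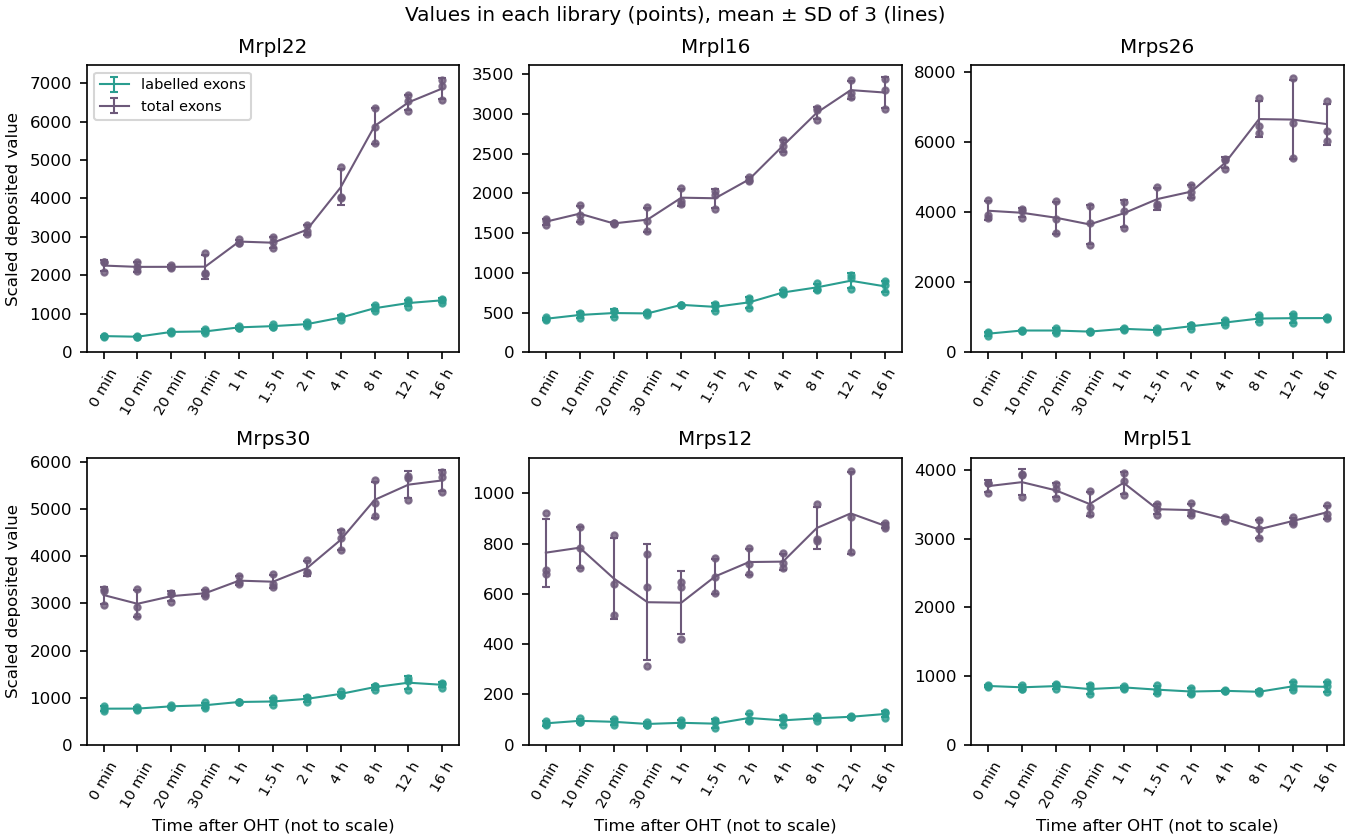
Scaled deposited value in every library of labelled (green) and total (purple) exons against time (not to scale), with the mean ± SD of 3 libraries as lines, for Mrpl22, Mrpl16, Mrps26, Mrps30, Mrps12 and Mrpl51. Mrpl22 in total exons goes from 2086 to 2339 at 0 min to 6566 to 7083 at 16 h, whereas Mrpl51 goes from 3669 to 3819 to 3302 to 3489. Heights of different genes and of the 2 tables are not comparable, since the values depend on length and scale.

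The genes lower in total exons were few. At 4 h they were Mrpl10, Mrpl24, Mrpl45, Mrpl49, Mrpl51 and Mrps16, with changes from -0.29 ± 0.05 for Mrpl49 to -0.13 ± 0.05 for Mrps16. At 16 h they were Mrpl23 at -0.21 ± 0.07, Mrpl24 at -0.24 ± 0.07, Mrpl51 at -0.15 ± 0.05 and Mrps16 at -0.14 ± 0.05. Mrpl23 and Mrpl24 have bacterial counterparts at the exit of the tunnel, Mrps16 one that binds small-subunit RNA, and Mrpl51 has none. Mrpl51 was at 3669, 3819 and 3811 at 0 min and 3489, 3364 and 3302 at 16 h in total exons, without overlap, and at 871.1, 836.4 and 861.6 and 911.0, 764.8 and 856.5 in labelled exons, which overlapped. The call of Mrpl23 gave an adjusted p of 0.122 without replicate 3 of total 16 h in limma, and that of Mrps16 0.1 without replicate 1 of total 16 h. The 4 h call of Mrps16 gave 0.0544 with the median of ratios, 0.135 with only the 2 groups, and 0.119, 0.0867, 0.16 and 0.0754 without replicate 1 or 2 of total 0 min or replicate 1 or 2 of total 4 h, and that of Mrpl10 gave 0.0937 with only the 2 groups. The 4 h call of Mrpl24 gave 0.127 without replicate 1 of total 4 h. Mrpl24 overlaps Rrnad1 on the other strand, and Mrpl23 is 1 of 4 members with a named pseudogene in RefSeq, which counting may not separate.

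Mrpl45, a large-subunit protein at the tunnel exit that faces the inner membrane, went both ways. Total exons held 3790, 3738 and 3665 at 0 min, 3205, 3241 and 3183 at 4 h and 5043, 4900 and 4835 at 16 h. The 4 h libraries lay below and the 16 h libraries above all of 0 min, with changes of -0.22 ± 0.05 and 0.40 ± 0.05 (adjusted p = 0.00132 and 1.63e-07, limma). Labelled exons were at 0.06 ± 0.07 at 4 h and 0.47 ± 0.07 at 16 h. Mrpl49 changed by -0.42 ± 0.09 in labelled exons at 1.5 h (adjusted p = 2.76e-04, limma) and by -0.25 ± 0.05 in total exons, both falls, and stood at 0.03 ± 0.09 and -0.08 ± 0.05 at 16 h. The other 3 members with the smallest labelled change at 16 h were Mrpl33 at -0.0037 ± 0.10, Mrpl51 at -0.02 ± 0.07 and Mrpl54 at -0.0021 ± 0.13.

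The sign of the difference between the Mrpl and Mrps medians varied with the table. In labelled exons the median change of Mrpl less that of Mrps was 0.04 at 1 h, 0.01 at 4 h and -0.09 at 16 h, and in total exons -0.09 at 4 h and -0.07 at 16 h. Taken library by library, the Mrpl median less the Mrps median was -0.024 ± 0.008 (SD, n = 3) at 16 h in labelled exons, from -0.033 to -0.016, against -0.030 to 0.032 at 0 min. In total exons it was -0.085 ± 0.019 at 16 h, from -0.104 to -0.067, below the -0.015 to 0.024 of 0 min. The higher Mrps median in total exons was also present in each library at 20 and 30 min and at 1.5, 2, 4, 8 and 12 h, but not at 10 min or 1 h. The library nearest to no difference had -0.005 at 20 min, -0.001 at 30 min and -0.013 at 2 h, within the range of 0 min. At 4 h it had -0.017. In labelled introns it was 0.062 ± 0.00778 at 12 h and 0.041 ± 0.028 at 16 h, from 0.014 to 0.070, against -0.047 to 0.052 at 0 min, and in total introns -0.0996 ± 0.0229 at 12 h and -0.0021 ± 0.0215 at 16 h, against -0.036 to 0.027 at 0 min. These are descriptions without a test. Leaving out 1 library moved the labelled 16 h difference between -0.090 and -0.026. By count, 69.8% of Mrpl and 73.1% of Mrps genes rose in labelled exons at 16 h, and 58.1% and 65.4% in total exons.

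The changes in labelled and total RNA at 16 h, which come from different libraries, were set side by side. The 2 kinds may not be independent. Deviations from group means correlated between same-numbered labelled and total exon libraries at 0.153, 0.269 and 0.283 at 16 h. At 4 h these correlations were 0.293, 0.277 and 0.278, and the main fit of the difference below had no term for the replicate. Of the 49 genes that rose in labelled exons 41 also rose in total exons (83.7% of the labelled and 97.6% of the 42 total calls), against 86.2% and 74.5% for the calls over all genes, and Mrps10 rose in total exons alone. Across the 69 genes the 2 changes had r = 0.888 and rho = 0.823, as a description over genes of the same cells. A test of the difference itself, labelled change less total change, gave 0 of 69 genes at 4 h and 0 at 16 h by limma, against 0.0523% and 0.201% of all genes higher and 0.00872% and 0.131% lower in labelled RNA. An unadjusted p under 0.05 gave 7 higher and 0 lower at 4 h, and 6 and 2 at 16 h. Over all times it called 2 genes, Mrpl22 at 30 min (1.74% of all genes) and Mrpl13 at 12 h (0.759%). The differences at 16 h ran from -0.38 to 0.36 over the 69 genes.

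**Figure D4:**
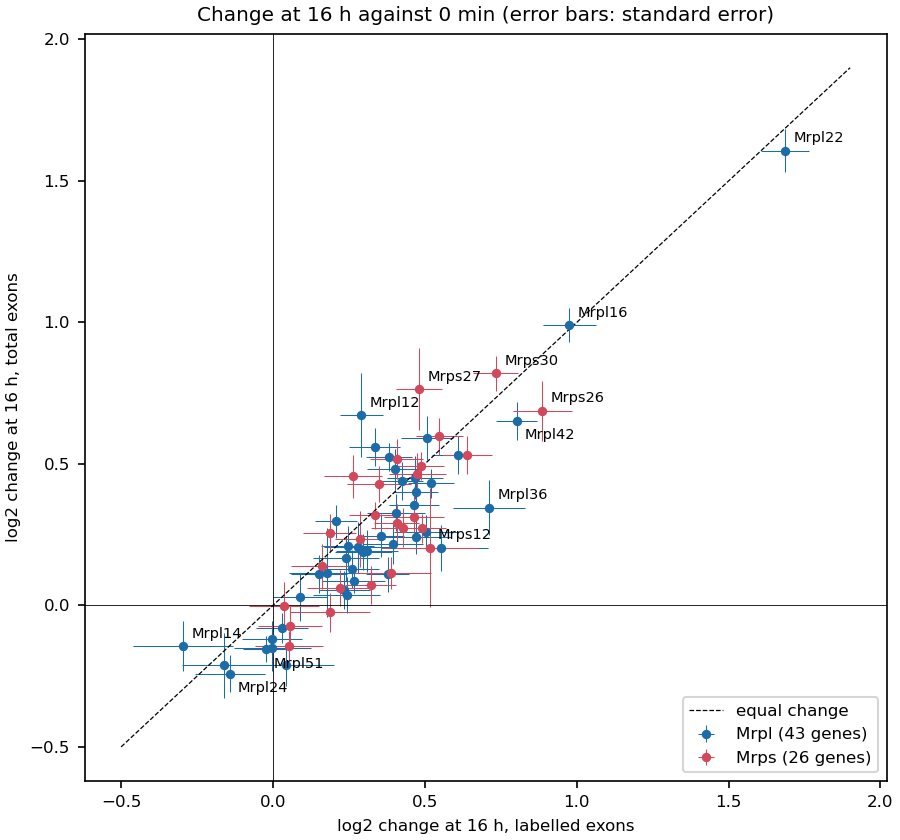
Change at 16 h in labelled exons (x axis) and total exons (y axis), log2 scale, for each Mrpl (blue) and Mrps (red) gene, with standard errors as bars and the line of equal change dashed. Most genes lie near the line, with Mrpl22 at 1.69 and 1.61, Mrpl12 above it at 0.29 and 0.67 and Mrpl36 below it at 0.71 and 0.35, and the difference was called for none of the 69 at this time.

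Introns report on RNA before or during splicing. In labelled introns 24 genes had risen and 3 had fallen at 1 h (24.2% and 25% of all genes), 30 and 2 at 4 h (24.9% and 24.9%), 47 and 2 at 12 h (28% and 26.7%) and 40 and 1 at 16 h (25.7% and 22.7%), where the median change was 0.28 against 0.03 over all genes. The rises and falls in labelled introns at 1 h became 16 and 4 with library sums, 18 and 3 without further scaling and 19 and 3 with RPKM. In total introns 19 rose and 1 fell at 4 h (19.8% and 20.1%), and 23 rose and 2 fell at 16 h (21.4% and 19.9%). Mrpl22 introns in labelled RNA were at 648.8, 656.8 and 598.9 at 0 min, 1880, 1888 and 1847 at 4 h and 1921, 1969 and 1870 at 16 h. All later libraries were above 0 min, the 4 h and 16 h ranges overlapped, and the changes were 1.56 ± 0.06 and 1.60 ± 0.06 (adjusted p = 9.36e-19 and 4.7e-19, limma), beside 1.10 and 1.69 in exons. Mrps15 introns rose by 0.85 ± 0.07 at 4 h and 0.82 ± 0.07 at 16 h, and those of Mrpl42 by 0.71 ± 0.08 and 1.00 ± 0.08.

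Of the 49 genes that rose in labelled exons at 16 h, 34 also rose in labelled introns of the same libraries (69.4% of the exon and 85% of the 40 intron calls), against 81.6% and 72.2% for the calls over all genes. Mrpl12 was at -0.02 ± 0.10 in labelled and 0.02 ± 0.12 in total introns at 16 h, where neither passed, while its exons rose in both. Mrps28, a small-subunit protein, had the only intron fall among the members at 16 h in labelled RNA, from 5508, 5570 and 5603 to 4465, 4678 and 4724, without overlap. Its intron change was -0.27 ± 0.07 (adjusted p = 0.0021, limma), and its exons did not pass in either RNA. Mrps28 is the longest of the 69 genes, at 121.8 kb, and overlaps 2 annotated pseudogenes, 1 of them on its strand.

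A few introns were lower early, under the main scaling a smaller share of the members than of all genes. At 30 min 16 genes were higher and 7 lower in labelled introns, against 21.8% and 20.6% of all genes. That split was 8 and 12 with library sums and 16 and 3 without further scaling. In total introns at 30 min 4 were higher and 6 lower, against 15% and 12.3% of all genes, and 1 and 16 with library sums. Mrps27 introns changed by -0.18 ± 0.05 at 30 min and by 0.20 ± 0.05 at 16 h, both called. Mrpl45 introns changed by -0.43 at 30 min (adjusted p = 0.000297, limma) and by 0.33 ± 0.09 at 16 h, the latter call giving 0.0515 without replicate 3 of labelled 0 min. Mrpl33 introns changed by -0.41 at 30 min (adjusted p = 0.000808, limma) and by 0.15 ± 0.10 at 16 h, the latter not called. Mrpl33 overlaps Rbks and Bre, 1 of them on its strand, and counting may not separate them. Mrpl45 and Mrps27 each overlap 1 annotated gene on the other strand. Mrpl14, singled out after its values were seen, had lower labelled introns at 7 of the 10 times, with -0.64 at 30 min (adjusted p = 5.03e-05, limma). Its call at 4 h was lost under 8 alternatives, with an adjusted p of 0.0789 with library sums, 0.0962 without further scaling, 0.102 with RPKM and 0.0564 to 0.129 in 5 fits with 1 library left out (limma). It overlaps Tmem63b on the other strand. The 30 min call of Mrps27 gave an adjusted p of 0.0583 without replicate 3 of labelled 30 min in limma.

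Before OHT the 69 genes were expressed above the typical gene. Their RPKM in total exons at 0 min had a median of 27.83, against 7.122 over all genes kept, with 26.13 for Mrpl and 28.72 for Mrps. Mrpl20 was highest at 140.3 ± 15.5 (SD, n = 3), followed by Mrpl12 at 84.7 ± 7.09 and Mrpl54 at 80.97 ± 10.6, and the last 2 overlap within their SD. Mrps25 was lowest at 6.29 ± 0.243, with Mrps9 at 6.707 ± 0.437 and Mrpl19 at 7.503 ± 0.188 next. Mrps25, Mrps9 and Mrpl19 were each called higher at 16 h in labelled and in total exons, Mrps25 by 0.55 ± 0.08 and 0.60 ± 0.07. The labelled call of Mrps9 was lost under 4 alternatives, with an adjusted p of 0.0583 to 0.113 in limma. Mrpl22 held 49.7 ± 4.42 RPKM at 0 min.

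At 0 min, labelled exons were low relative to total exons for 63 of the 69 genes and high for 4, against 42.3% and 36.5% of all genes, in a fit with both tables scaled together. The median labelled-minus-total level was -0.74 for Mrpl and -0.76 for Mrps genes on the log2 scale. Mrpl28 had -1.55 ± 0.07, Mrps12 -1.54 ± 0.18 and Mrpl36 -1.43 ± 0.11, while Mrpl13 had 0.25 ± 0.07, Mrps6 0.24 ± 0.09, Mrpl27 0.24 ± 0.08 and Mrpl19 0.22 ± 0.06. All of the last 4 overlap another annotated gene, which counting may not separate. Mrpl13 overlaps Mtbp, Mrpl27 overlaps Eme1 and Mrpl19 overlaps AW146020, each on the other strand. Mrps6 overlaps Slc5a3, Gm16309 and Gm16310, all 3 on its own strand. The call of Mrpl27 gave an adjusted p of 0.133 without replicate 2 of total 0 min and 0.0875 with the replicate block in limma, and that of Mrps6 0.0597 without that library and 0.0598 without replicate 3 of labelled 0 min. Introns made up 63.0% ± 0.430 (SD, n = 3) of the summed levels of the 69 genes in labelled RNA, with exons and introns each scaled on their own. In total RNA they made up 15.05% ± 0.342. For cytosolic ribosomal proteins these were 17.66% ± 0.857 and 2.897% ± 0.116. The share was 72.6% for Mrps and 55.49% for Mrpl genes in labelled RNA. These shares depend on intron and exon lengths, and the part of each was not tested.

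**Figure D5:**
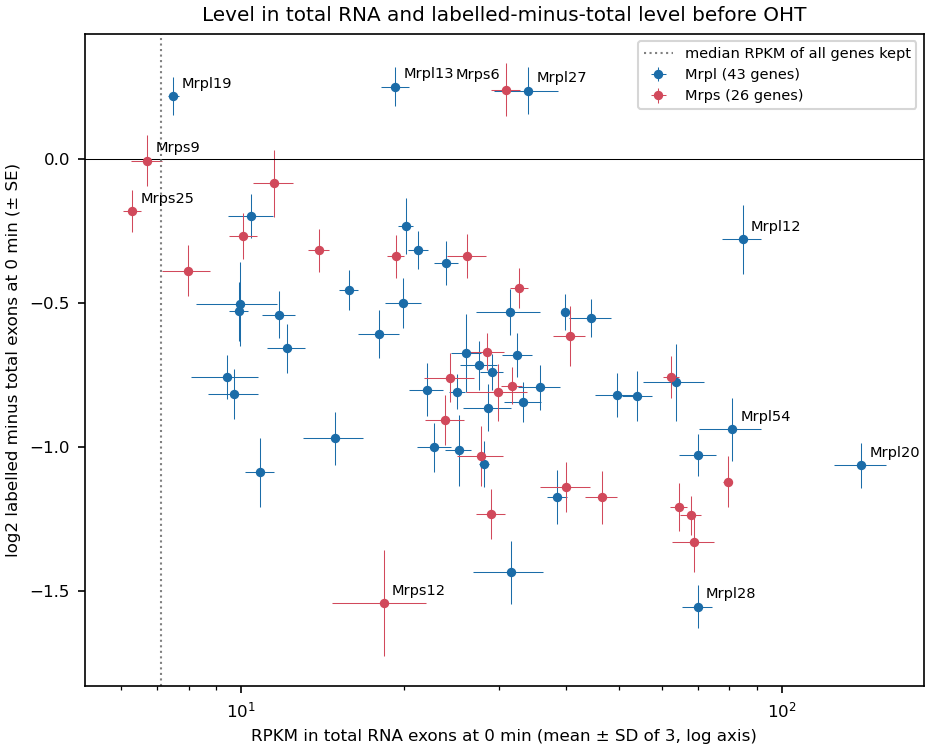
RPKM in total exons at 0 min (x axis, log scale, mean ± SD of 3 libraries) against the log2 labelled-minus-total exon level at 0 min (y axis, ± SE) for each Mrpl (blue) and Mrps (red) gene. The dotted line marks 7.122 RPKM, the median of all genes kept, and 63 of the 69 genes were called below 0 on the y axis.

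Other nuclear genes of mitochondrial translation moved in part with these. Of 8 genes listed as mitoribosome proteins under other symbols 6 rose and 0 fell in labelled exons at 16 h. Dap3 rose by 0.40 ± 0.06 and the RNA-binding Ptcd3 by 0.33 ± 0.07. That list was drawn up with Oxa1l in it, a membrane insertase and not a ribosomal protein. Of 25 genes for assembly of the mitoribosome and modification of its RNA, 12 rose and 0 fell in labelled exons and 17 rose and 1 fell in total exons, against 26.3% and 29.6% of all genes. The 1 fall became 0 under 7 alternatives, namely library sums, no further scaling, RPKM, only the 2 groups, and without replicate 1 or 2 of total 16 h or replicate 2 of total 0 min. Noa1, a GTPase of small-subunit assembly, rose by 1.51 ± 0.07 in labelled exons, and C1qbp, a matrix protein, by 0.67 ± 0.08. Of 14 translation factors 7 rose and 0 fell in labelled exons, with the elongation factor Tufm at 0.79 ± 0.07 and the GTPase Guf1 at 0.59 ± 0.08. Of 16 mitochondrial tRNA synthetases 3 rose and 1 fell (2 without further scaling or without replicate 2 of labelled 16 h), with Yars2 at 0.55 ± 0.08 and Nars2 at 0.60 ± 0.10. Of 5 genes of mitochondrial transcription 4 rose and 0 fell, led by Tfb2m at 1.21 ± 0.08, with Tfam, which packages mitochondrial DNA, at 0.64 ± 0.07. The background for these labelled counts is 22.7% risen and 21.6% fallen.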

How the data were processed

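The authors deposited 4 tables of whole-number values per gene (exons and introns, labelled and total RNA) and 4 of RPKM. The submitters' processing notes name TopHat2 2.0.8 and the mm9 build but no roles. The sources used here name no counting tool, annotation or strand setting. Although deposited as counts, low whole numbers are missing or doubled and each gene keeps 1 ratio to its RPKM, so they were treated as scores that the authors rescaled, and no count model was run. From these scores, values were scaled per table by TMM (30% of log ratios and 5% of levels trimmed) and a gene was kept where 3 or more libraries reached 10. limma 3.58.1 (R 4.3.3, with a trend) was fitted to log2(value + 1) with 1 mean per time over 33 libraries, and labelled was compared with total RNA over 66 libraries. All p-values are two-sided and adjusted by Benjamini-Hochberg over all genes kept. The procedure was tested on simulated data. The authors' RPKM, as deposited, served for levels. Gene positions are from GENCODE M1 (mm9), which held all 69 genes, and promoters from RefSeq (GRCm38.p6). In GENCODE M1, 27 of the 69 genes overlapped another annotated gene.

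The members and gene lists were chosen with earlier results of these data known. Named members were the 6 largest called rises and 3 largest called falls per comparison (level of at least 50), the 4 smallest changes, the 3 highest and 3 lowest RPKM and 9 chosen by name, with others named where a count of 5 or fewer or a single pattern called for it after the values were seen. For the other lists up to 2 genes with the smallest p were named. Replicate numbers come from the sample titles. In total exons all 3 correlations of same-numbered 0 min and later libraries, as deviations from their group means, were over 0.1 at 7 of 10 times, not at 1, 1.5 and 12 h. The libraries of 4 h (0.356, 0.31 and 0.214) and 16 h (0.101, 0.37 and 0.234) were taken as paired with 0 min. The main fit nevertheless had no term for this pairing, so the total exon counts, SE and p-values above are unpaired. The pairing enters only in the fit with a replicate block, given below among the alternatives. In labelled exons this held at 1 of 10 times, 8 h (0.248, 0.13 and 0.151), and those libraries were not taken as paired (0.134, 0.182 and -0.0689 at 16 h). Epithelial and muscle markers were looked up by symbol and gave no level.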

Additional observations from a re-analysis of the deposited data

Results flagged for a closer look

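For 2 genes the change in labelled exons differed from that in total exons by the test of the difference itself, among 69 genes at 10 times. Mrpl22 at 30 min stood 0.3893 ± 0.1085 (SE, log2) higher in labelled than in total change (adjusted p = 0.0408, limma). Its labelled exons were at 594.2, 538.3 and 489.0 at 30 min, above 0 min in every library, and its total exons at 2581, 2060 and 2033, which overlapped 0 min. The call was lost under 4 alternatives of scaling, unit or samples fitted and without any of 8 of the 12 libraries, where the difference ran from 0.3188 to 0.5008. Mrpl13 at 12 h stood 0.4338 ± 0.09543 higher (adjusted p = 0.00814, limma). Labelled exons of Mrpl13 were at 3858, 4727 and 4141 at 12 h, above every 0 min library, and total exons at 8150, 8076 and 7779, which overlapped 0 min. That call gave an adjusted p of 0.0749 without replicate 2 of labelled 12 h, 0.0564 without replicate 3 of labelled 0 min and 0.124 with only the groups compared in the fit (limma).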

How the results depend on the processing

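Over the 8 alternatives and the libraries left out in turn, no called change of sign was found among the members tested. In labelled exons the 11 rises at 1 h became 6 with library sums, 7 without further scaling and 7 to 10 with 1 library left out. The 22 at 4 h became 12 without further scaling and 14 with RPKM plus 0.1, each with 1 fall, and 15 to 18 rises with 0 to 1 falls with 1 library left out. The 49 at 16 h became 44 to 48 with 1 library left out, with 0 to 1 falls, and the Mrpl less Mrps median went from -0.087 to between -0.090 and -0.026. In labelled introns at 4 h the 2 falls became 1 with the median of ratios, the replicate block or only the 2 groups, 0 with library sums, no further scaling or RPKM, and 0 to 2 with 1 library left out. In total exons at 4 h the 11 rises became 7 without further scaling and 7 with RPKM, with 8 falls each, which took the share of rises among calls from 64.7% to 46.7%, and the 6 falls became 3 with only the 2 groups. In total introns at 16 h the 2 falls became 0 with library sums or no further scaling, 1 with pseudocount 4, RPKM or only the 2 groups, and 0 to 1 with 1 library left out. The cause of these shifts was not tested. With the replicate block, total exons gave 13 rises and 7 falls at 4 h and 44 and 4 at 16 h, total introns 26 and 2 at 16 h, labelled exons 11, 23 and 49 rises at 1, 4 and 16 h, labelled introns 30 rises at 4 h and 40 at 16 h, and 61 genes were lower in labelled RNA at 0 min. It changed no call of a named member in total exons, but ended the call of Mrpl27 for the labelled level at 0 min (adjusted p = 0.0875, limma). It also ended the 4 h calls of Mrps27 in labelled exons and Mrps16 in labelled introns (adjusted p = 0.0542 and 0.0535, limma). Mrpl20, not called in total introns at 16 h by the main fit, was called there with the block (adjusted p = 0.0379, limma). A scaling moved the median of all genes by over 0.1 in 3 cases, by -0.116 (no further scaling) and -0.107 (RPKM) in labelled exons at 1.5 h and by 0.104 (library sums) in labelled introns at 16 h. For the labelled level against total RNA at 0 min, no further scaling, RPKM and only the 2 groups were not run, since the tables lie on different scales. Depth is unknown, so no counting interval is given.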
